A study of Mus musculus with 6 samples.

Results

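The cytosolic ribosomal protein genes were described in primary fibroblasts from mouse embryos that were wild-type or knockout for the histone acetyltransferase HAT1. Members were taken by gene symbol, namely Rpl or Rps followed by a number and at most 1 letter, together with Rplp0, Rplp1, Rplp2 and Rpsa. S6 kinase genes and symbols ending in -ps were left out. The rule found 80 of the 17512 genes in the count table, of which 48 are named for the large subunit and 32 for the small subunit. The annotation lists 79 of the 80 as protein-coding and Rps4l, in the small subunit set, as a transcribed processed pseudogene. Of the 80 members, 79 had enough counts to be tested among 14773 genes, and Rpl3l did not.

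Poly(A)-selected RNA from 6 separately numbered fibroblast lines on a C57bl6 background was sequenced, 3 lines with the HAT1 WT genotype (36, 47 and 78) and 3 with the HAT1 KO genotype (33, 41 and 72). The cells came from embryos dissected over a span of mid-gestation days and were grown in serum, with no other treatment named. The day of each line's own embryo was not given in the sources used here, and the knockout was carried by the whole embryo rather than driven in 1 cell type. The comparison of KO with WT lines asks which transcripts differ in abundance between the genotypes.

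Each ribosome has a large subunit, which joins amino acids, and a small subunit, which reads the mRNA. Their proteins are needed in near-equal numbers, are among the most abundant products of a growing fibroblast, and are largely encoded by mRNAs that begin with a terminal oligopyrimidine (TOP) tract, through which mTORC1 signalling sets their translation. A few have paralogues that can take the place of the core protein, and processed pseudogenes of the family are scattered through the mouse genome.

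HAT1 KO and WT lines had totals of 67720628 to 98786746 counts. Hat1 itself was at 17.4, 23.0 and 20.1 CPM (counts scaled to library size, with TMM factors) in WT 36, 47 and 78, and at 10.2, 10.0 and 10.3 CPM in KO 33, 41 and 72, a log2 fold change of -0.99 ± 0.12 (SE; edgeR adjusted p = 0.0376), so Hat1 counts were lower but still present in the KO lines. KO 72 stood somewhat apart, with a mean correlation of 0.973 to the other libraries against 0.985 to 0.988 for the rest. The lines also differed in Xist, the RNA of the inactive X chromosome. Xist had 94 and 1179 counts in WT 36 and WT 47, 29520 in WT 78 and 11233 to 13722 in the KO lines, and the Y-linked genes had 13788 and 12841 counts in WT 36 and WT 47 against 4 to 231 in the other 4 libraries. Sex therefore partly went with genotype, and its part in the results was not tested. Summed macrophage marker levels were 4517 to 4890 CPM in the WT lines and 2185 to 2668 CPM in the KO lines, with all 10 markers lower and 8 past an edgeR adjusted p of 0.05. Summed fibroblast markers were at 70830 to 76280 CPM in the WT lines and 57530 to 89400 CPM in the KO lines, lowest in KO 72. In such bulk samples fewer cells of a type and less RNA per cell cannot be told apart.

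The start sites of some members are shown first, because the TOP tract is the sequence these mRNAs are best known for. Each line gives 30 bases of RefSeq sequence (GRCm38.p6), 15 on either side of the annotated start, on the coding strand, with the longest run of C and T in capitals. Rps18, Rpl35, Rps2 and Rps12 were among the members with the smallest p-values, Rpl7a has the longest run and Rpl11 the shortest of the members shown, Rplp0 is among the most abundant, and the rest are paralogue pairs.
Rps18, chr17:33955651-33955680, minus strand: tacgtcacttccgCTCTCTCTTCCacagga
Rpl35, chr2:39005117-39005146, minus strand: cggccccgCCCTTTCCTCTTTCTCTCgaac
Rps2, chr17:24720048-24720077, plus strand: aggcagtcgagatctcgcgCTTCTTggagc
Rps12, chr10:23787195-23787224, minus strand: taccgtcatgcggccaccgccggCCTTTTC
Rplp0, chr5:115559452-115559481, plus strand: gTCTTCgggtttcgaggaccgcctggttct
Rpl7a, chr2:26910792-26910821, plus strand: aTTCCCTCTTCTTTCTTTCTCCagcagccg
Rpl11, chr4:136053379-136053408, minus strand: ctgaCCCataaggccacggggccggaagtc
Rps27, chr3:90213634-90213663, minus strand: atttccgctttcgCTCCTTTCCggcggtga
Rps27l, chr9:66946071-66946100, plus strand: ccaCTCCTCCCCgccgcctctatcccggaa
Rpl39, chrX:37085208-37085237, minus strand: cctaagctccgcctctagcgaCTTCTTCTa
Rpl39l, chr16:10170213-10170242, plus strand: ctcccaggCCTTTCCggatttccggtggtc
Rpl22, chr4:152325711-152325740, plus strand: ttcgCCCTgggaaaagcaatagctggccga
Rpl22l1, chr3:28805493-28805522, plus strand: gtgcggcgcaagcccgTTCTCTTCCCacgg

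RefSeq starts were at hand for 59 members. A run of at least 8 pyrimidines lay in this window in 40.7% of them, against 11.9% of all 27025 promoters of the same length. The median longest run was 7 bases in members and 4 in all promoters. In the 300-base promoter, read on both strands, CCGGAAG was found in 40.7% of members and 9.12% of all promoters, CTTTCC in 47.5% and 26.3%, GGGCGG in 57.6% and 35.9%, and AAGATGG in 13.6% and 6.48%. These letters differ from one another by sequence and can still overlap in one promoter. The longest run can lie wholly before the annotated start, as in Rps27l, Rplp0, Rpl11 and Rpl22. It is therefore no measure of the TOP tract, and a split by it cannot test that tract. Members split by the run had like differences between genotypes. The 24 tested members with a run of at least 8 had a median log2 fold change of 0.22, with 23 higher in the KO lines, and the 34 with a shorter run also had a median of 0.22, with 32 higher.

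Most ribosomal protein transcripts were slightly more abundant in the HAT1 KO lines as a group, by an amount that was near-uniform across genes but not across lines. The median member in KO 72 was at 0.01 (log2) relative to the WT mean. Of the 79 tested members, 75 were higher and 4 lower, with a median log2 fold change of 0.22 and a range of -0.24 to 0.33. Over all tested genes 51.5% were higher and the median was 0.0085. The middle of the distribution was narrow, with quartiles of 0.18 and 0.25, and 70 members lay between 0.1 and 0.35. No member passed an edgeR adjusted p of 0.05, against 0.528% of all tested genes, and the smallest adjusted p among members was 0.199. At an unadjusted edgeR p under 0.05, 15 members were higher and 0 lower, where the background over all genes was 5.88% higher and 8.77% lower. DESeq2 called 2 members, Rps18 and Rps27l, against 5.9% of all tested genes. The members share libraries and are not independent of one another, so their counts describe these 6 libraries.

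Among 1942 other genes with a WT mean of at least 100 CPM, 50.5% were higher in the KO lines and the median log2 fold change was 0.0013. In that set 5.97% were higher at an unadjusted p under 0.05, and all 3 KO lines were above all 3 WT lines for 10.7%. The set was not matched to the members' levels, and some members, such as Rps27l and Rpl36a, lay under its floor.

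**Figure D1:**
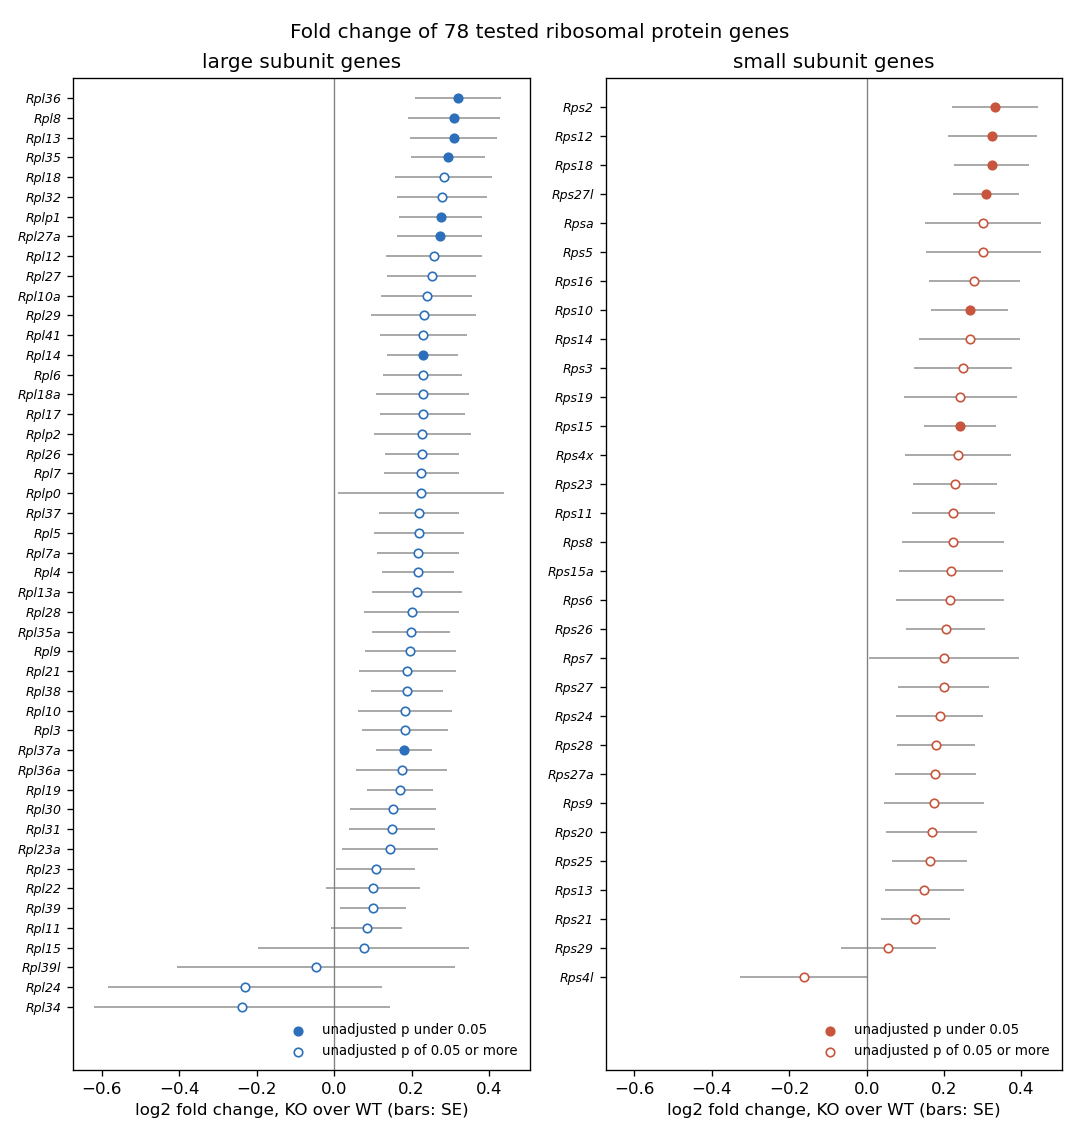
Log2 fold change of KO over WT (x axis) for 78 of the 79 tested ribosomal protein genes, large subunit on the left and small subunit on the right, with bars for 1 SE from edgeR. Filled points have an unadjusted p under 0.05; 44 of the 47 large and 30 of the 31 small subunit genes plotted lie to the right of 0.

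Large and small subunit genes had like differences. The 47 tested large subunit genes had a median log2 fold change of 0.22, with 44 higher, 8 of them at an unadjusted p under 0.05. The 32 small subunit genes also had a median of 0.22, with 31 higher, 7 of them at that p. Large subunit genes took 1.54%, 1.55% and 1.34% of all counts in WT 36, 47 and 78, and 1.85%, 1.80% and 1.49% in KO 33, 41 and 72. Small subunit genes took 1.12%, 1.17% and 0.999% in WT lines against 1.43%, 1.34% and 1.12% in KO lines, in the same order. The ratio of large to small subunit CPM was 1.38, 1.33 and 1.34 in WT lines against 1.29, 1.34 and 1.33 in KO lines. The ranges of that ratio overlapped.

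All members together made up 2.66%, 2.72% and 2.34% of the counts in WT 36, 47 and 78 and 3.28%, 3.13% and 2.60% in KO 33, 41 and 72. KO 33 and KO 41 were above every WT line, and KO 72 was between WT 78 and WT 36. The mean was 2.57% ± 0.205 (SD, n = 3) in WT and 3.005% ± 0.354 (SD, n = 3) in KO lines, a ratio of 1.17. Leaving out the 10 most abundant genes of the table gave the same order, with 3.04%, 3.09% and 2.68% in WT and 3.79%, 3.58% and 2.95% in KO lines.

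**Figure D2:**
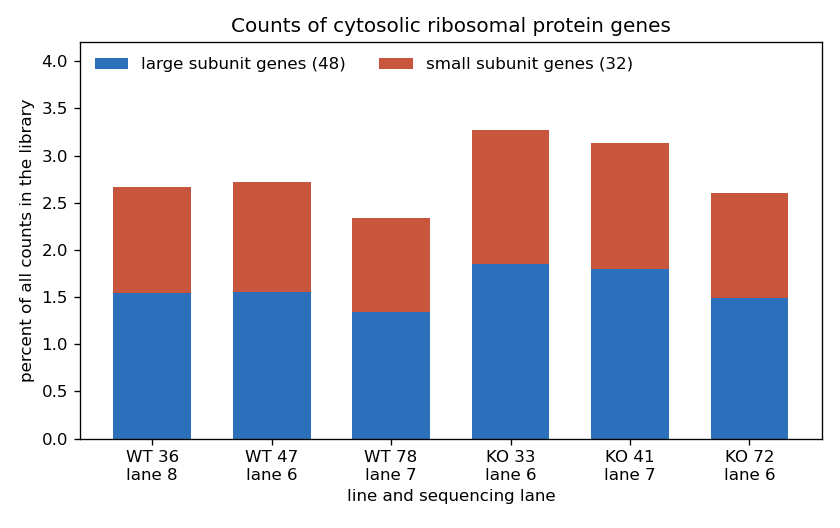
Percent of all counts (y axis) in large subunit genes (blue) and small subunit genes (red) for each line, with its sequencing lane. KO 33 (3.28%) and KO 41 (3.13%) are highest, and KO 72 (2.60%) falls within the WT values of 2.34% to 2.72%.

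For most members the same lines were highest and lowest. KO 33 was the highest library for 67 of the 79 members and WT 78 the lowest for 67. Relative to the WT mean, the median member stood at 0.06, 0.06 and -0.13 (log2) in WT 36, 47 and 78, at 0.34 in KO 33, 0.27 in KO 41 and 0.01 in KO 72. Both KO 33 and KO 41 were above all 3 WT lines for 71 members. KO 72 lay within the WT range for 48 members, above it for 20 and below it for 11, and was under both other KO lines for 75. All 3 KO lines were thus above all 3 WT lines for 20 members, against 9.59% of all genes, and all below for 0 members, against 12.4%. The median coefficient of variation of a member was 8.37% among WT lines and 12.2% among KO lines.

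The count of members past an unadjusted p depended on every line. Without KO 72, 77 of 79 members were higher, the median log2 fold change was 0.32 and 60 members were higher at an unadjusted edgeR p under 0.05, where the background became 9.06%, with 0 called and a smallest adjusted p of 0.0963. Without any of the other lines the count was lower than 15. It was 2 without WT 78 (background 3.11%), 2 without KO 33 (4.3%), 3 without KO 41 (5.41%), 6 without WT 36 (3.02%) and 8 without WT 47 (5%). The median log2 fold change was lowest, at 0.15, without KO 33. The lane in each library's name was shared by some lines, and with lane as a term 2 members were higher at that p, against a background of 1.39%. With voom quality weights, which give less weight to a library that stands apart, there were 50, against 7.42%, and with a block by the first digit of the line numbers 28, against 4.35%. In lane 7 KO 41 was above WT 78 for 77 members. In lane 6 KO 33 was above WT 47 for 76 members but KO 72 for 28, and lane 8 held only WT 36.

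**Figure D3:**
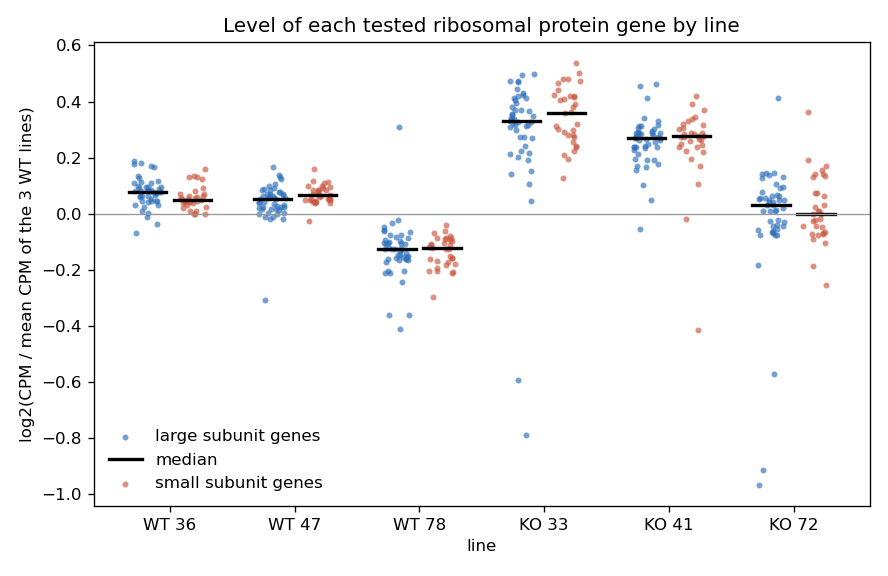
Log2 of each tested member's CPM over its mean in the 3 WT lines (y axis) by line, large subunit genes in blue and small subunit genes in red, with the median as a black bar. Members sit highest in KO 33 and KO 41, with medians of 0.34 and 0.27 over both subunits, while KO 72 is centred at 0.01.

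Rps2, Rps12 and Rps18 of the small subunit had the largest log2 fold changes. Rpl36 of the large subunit came next, within the SE, at 0.32 ± 0.11 (SE). Rps2 (chr17:24718116-24721929, plus strand), a protein near the mRNA entry channel, was at 1165, 1193 and 984 CPM in WT 36, 47 and 78 and at 1474, 1462 and 1271 CPM in KO 33, 41 and 72. The groups did not overlap, and the log2 fold change was 0.33 ± 0.11 (SE; edgeR adjusted p = 0.265). Rps18 (chr17:33951999-33956001, minus strand), in the head of the small subunit, was at 359, 368 and 324 CPM in the WT lines and 476, 445 and 394 CPM in the KO lines. Its groups were also apart, with a log2 fold change of 0.32 ± 0.10 (SE; edgeR adjusted p = 0.225). Rps12 (chr10:23785183-23787275, minus strand) had 438, 444 and 376 CPM in the WT lines and 585, 528 and 463 CPM in the KO lines, a log2 fold change of 0.32 ± 0.12 (edgeR adjusted p = 0.289). For each of these 3 genes KO 72 was the lowest KO line and WT 78 the lowest WT line. An exact two-sided permutation test of 3 against 3 lines cannot go below 0.1, the value that separated groups give.

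Rps27l (chr9:66946086-66949516, plus strand) differed in that order. This paralogue of Rps27 is known as a target of p53. It was at 83.3, 74.7 and 69.9 CPM in WT 36, 47 and 78 and at 88.7, 96.0 and 97.7 CPM in KO 33, 41 and 72, and it was the only member highest in KO 72. It had the smallest p-value of all members, with a log2 fold change of 0.31 ± 0.08 (SE; edgeR adjusted p = 0.199).

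In the large subunit, Rpl35 (chr2:39001580-39005624, minus strand), which lies at the mouth of the peptide exit tunnel, had 115, 116 and 102 CPM in the WT lines and 147, 138 and 122 CPM in the KO lines. Its log2 fold change was 0.29 ± 0.09 (SE; edgeR adjusted p = 0.247), with no overlap. Rpl36 (chr17:56613416-56614243, plus strand) had 132, 129 and 115 CPM in the WT lines and 168, 135 and 167 CPM in KO 33, 41 and 72. Here KO 41 rather than KO 72 came nearest to the WT lines, and the log2 fold change was 0.32 ± 0.11 (edgeR adjusted p = 0.274). Other members at an unadjusted p under 0.05 included Rpl8, Rpl13, Rpl14, Rpl27a, Rpl37a and Rplp1 in the large subunit and Rps10 and Rps15 in the small subunit, each higher in the KO lines.

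Functional groups within the ribosome had medians of 0.15 to 0.23, and differences between groups were not tested. The 3 proteins of the P-stalk, which recruits elongation factors, were all higher, at a median log2 fold change of 0.23. Rplp1 was at 793, 807 and 679 CPM in the WT lines and 1006, 911 and 841 CPM in the KO lines, without overlap, at 0.27 ± 0.11 (edgeR adjusted p = 0.322). Rplp0, the base of the stalk, was at 1366, 1312 and 938 CPM in the WT lines and 1502, 1663 and 1061 CPM in the KO lines. Its groups overlapped through KO 72, and its log2 fold change of 0.22 had an SE of 0.21. The 5S RNP proteins, Rpl5 and Rpl11, which bind MDM2 when ribosome assembly is disturbed, were both higher at a median of 0.15. The 3 proteins lining the exit tunnel were all higher at a median of 0.22. Of 9 genes picked from those mutated in Diamond-Blackfan anaemia, a list that need not be complete, 9 were higher at a median of 0.20.

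All 4 X-linked members were higher, at a median log2 fold change of 0.18, and none passed an unadjusted p of 0.05. Rps4x was at 696, 707 and 653 CPM in the WT lines and 917, 853 and 651 CPM in the KO lines, with KO 72 below every WT line. Rpl10, which joins the large subunit late in its assembly, was at 562, 541 and 495 CPM in the WT lines and 667, 640 and 509 CPM in the KO lines. Rpl39 differed least, with 151, 148 and 140 CPM against 167, 163 and 140 CPM and a log2 fold change of 0.10 ± 0.09. Rpl36a had 74.0, 65.5 and 56.8 CPM in the WT lines and 72.7, 81.2 and 67.6 CPM in the KO lines, which overlapped.

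Levels between genes were compared per kilobase of transcript. The highest WT levels were 1523 CPM per kb for Rplp1, 1116 for Rps2, 888 for Rplp0, 849 for Rps12 and 759 for Rps14. Their WT SDs were 141 for Rplp1, 113 for Rps2, 171 for Rplp0, 76.8 for Rps12 and 45.4 for Rps14 (n = 3), in the same unit. Rplp1 stood above the others by more than this spread, and from Rps2 downward the intervals of mean ± SD of neighbouring genes overlapped. The median was 328 CPM per kb for large and 418 CPM per kb for small subunit genes, with quartiles of 272 and 443 for the large and 320 and 524 for the small subunit. The lowest tested members were Rps4l at 30.8, Rpl39l at 11.8 and Rpl24 at 0.402 CPM per kb. The level per length depends on the transcript taken as the gene's length. With the longest transcript the medians were 322 and 395 CPM per kb, and with all exons merged 133 and 161 CPM per kb. Rps14 itself had 461, 476 and 423 CPM in the WT lines and 630, 552 and 453 CPM in the KO lines, a log2 fold change of 0.27 ± 0.13 with overlap.

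In all, 4 members were lower in the KO lines, none past an unadjusted p of 0.05. The row for Rpl24 held only 14 to 25 counts in any library, about 0.272 CPM in the WT lines, and its exons overlap those of 1 other annotated gene, so its level is uncertain. Rpl34 (chr3:130726831-130730398, minus strand) was the member whose libraries differed most. It was at 226, 226 and 151 CPM in WT 36, 47 and 78 and at 133, 276 and 103 CPM in KO 33, 41 and 72. It was highest in KO 41 and about as low in KO 33 as in KO 72 and WT 78, and its log2 fold change was -0.24 ± 0.38 (SE; edgeR adjusted p = 0.818). Without KO 72 that value was 0.03.

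The pseudogene Rpl34-ps1 (chr6:71124610-71124963) had the opposite order. It was at 0.822 and 1.52 CPM in WT 36 and WT 47, 17.2 CPM in WT 78, 45.03 CPM in KO 33, 1.21 CPM in KO 41 and 28.8 CPM in KO 72. The 3 libraries with low Rpl34 were the 3 with high Rpl34-ps1, irrespective of genotype. Of the 50-base words in the Rpl34 transcript, 50.6% also occur in the pseudogene, so reads can be shared or split between these rows. The pseudogene held 0.362%, 0.666%, 10.2%, 25.3%, 0.438% and 21.9% of the pair's CPM in WT 36, 47, 78 and KO 33, 41, 72. The sum of both rows was 227, 227 and 168 CPM in the WT lines and 178, 277 and 132 CPM in the KO lines, so the sum still differed between the same libraries. All 5 tested pseudogenes with -ps in their symbol had a log2 fold change above 0, none past an unadjusted p of 0.05. Rps4l, a member that the annotation lists as a pseudogene, was lower, at a log2 fold change of -0.16.

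**Figure D4:**
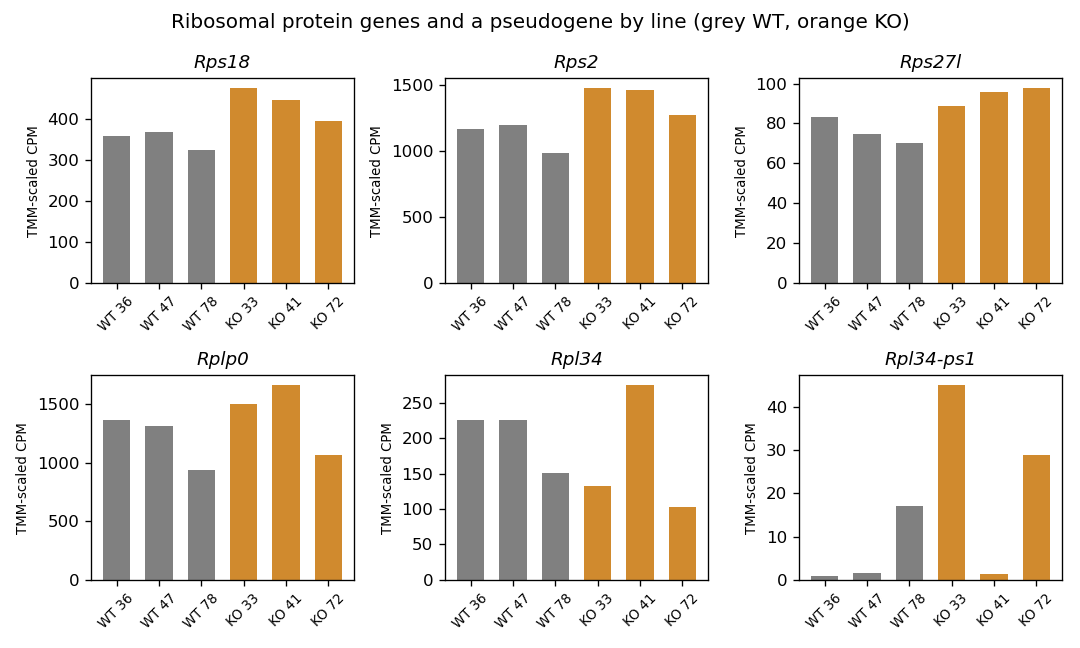
TMM-scaled CPM (y axes, each from 0) of Rps18, Rps2, Rps27l, Rplp0, Rpl34 and the pseudogene Rpl34-ps1 in each line, WT in grey and KO in orange. The first 3 genes are higher in every KO line, while Rpl34 is low and Rpl34-ps1 high in WT 78, KO 33 and KO 72.

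Rpl34 was 1 of 10 members highest in KO 41 rather than KO 33. The others, listed after their values were seen, were Rpl11, Rpl15, Rpl21, Rpl22, Rpl23, Rpl36a, Rplp0, Rps7 and Rps24. Rpl15 had 265, 259 and 184 CPM in the WT lines and 274, 314 and 159 CPM in the KO lines, at a log2 fold change of 0.08 ± 0.27. Rps7 had 393, 376 and 286 CPM in the WT lines and 433, 471 and 309 CPM in the KO lines, at 0.20 ± 0.19. In both genes WT 78 and KO 72 were the lowest lines.

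Many members share sequence with other genes, and the part of this in the members' values was not tested. Of the 80 members, 77 shared at least one 50-base word with the transcripts of another annotated gene and 46 shared over 50% of theirs. The 46 had a median log2 fold change of 0.22, with 44 higher, and the 33 tested members that shared at most 50% had a median of 0.22, with 31 higher. The 66 tested members whose exons overlap no other gene had a median of 0.22, with 63 higher.

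The lines of the genotypes overlapped in the paralogue ratio of 5 of 6 pairs. With so few lines the exact permutation test of these ratios cannot go below p = 0.1. No ratio could therefore have passed the threshold used for the other tests, and these p-values do not decide whether paralogue use differed. Paralogue and core gene were compared as a log2 ratio of counts within each library in 6 pairs. Some of these paralogues fall outside the symbol rule and were added for the purpose. Rps27l made up 35.96%, 32.9% and 32.6% of the Rps27 pair in WT 36, 47 and 78 and 31.8%, 34.8% and 40.9% in KO 33, 41 and 72, and the ranges overlapped. Rps27 itself had 148, 153 and 144 CPM in the WT lines and 191, 180 and 141 CPM in the KO lines. The mean log2 ratio was higher by 0.12 in the KO lines (exact two-sided permutation p = 0.7, adjusted 0.84).

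Rpl22l1 made up 16.0%, 16.4% and 18.3% of its pair with Rpl22 in WT lines against 18.7%, 17.4% and 17.5% in KO lines, a difference in log2 ratio of 0.10 (exact permutation p = 0.3, adjusted 0.6). Rpl22, a protein that also binds structured RNA, had 140, 136 and 117 CPM in the WT lines and 135, 162 and 124 CPM in the KO lines. Rpl36al made up 35.8%, 38.5% and 40.3% of its pair with Rpl36a in WT lines against 38.9%, 35.9% and 39.5% in KO lines, a difference in log2 ratio of -0.0013 (exact permutation p = 1). Its own level was higher in each KO line, at 41.2, 40.9 and 38.3 CPM against 46.4, 45.5 and 44.2 CPM (log2 fold change 0.18 ± 0.06, edgeR adjusted p = 0.277).

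Rps4l, which the annotation lists as a transcribed processed pseudogene, was the only partner whose ratio separated the groups. It made up 3.54%, 3.60% and 3.13% of its pair with Rps4x in WT lines against 2.82%, 2.10% and 3.03% in KO lines. The difference in log2 ratio was -0.395, with 3 of 3 KO lines below every WT line (exact permutation p = 0.1, the smallest possible, adjusted 0.6 over the 6 pairs). Rps4l itself had 25.5, 26.4 and 21.1 CPM in the WT lines and 26.6, 18.3 and 20.4 CPM in the KO lines, which overlapped.

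Rpl7l1 made up 12.0%, 11.8% and 13.2% of its pair with Rpl7 in WT lines against 11.2%, 10.6% and 12.4% in KO lines (difference in log2 ratio -0.13, exact permutation p = 0.3, adjusted 0.6). Rpl7 had 514, 528 and 487 CPM in the WT lines and 639, 623 and 525 CPM in the KO lines. Rpl39l, best known from the testis, had 9.07, 7.69 and 11.8 CPM in the WT lines and 13.4, 9.17 and 5.06 CPM in the KO lines. Its share of the pair with Rpl39 was 4.94% to 7.77% in WT lines against 3.48% to 7.44% in KO lines (difference in log2 ratio -0.23, exact permutation p = 0.6, adjusted 0.84). Rpl3l, known from striated muscle, had 2 counts in each library but KO 33, which had 12, and got no test. Its core gene Rpl3 had 764, 713 and 683 CPM in the WT lines and 897, 849 and 706 CPM in the KO lines.

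Some proteins of the ribosome fall outside the symbol rule, and 3 of their genes are given here. These 3 were all higher in the KO lines and do not stand for the rest, some of which were lower. Rps3a1 was at 527, 525 and 506 CPM in the WT lines and 662, 636 and 486 CPM in the KO lines (log2 fold change 0.20 ± 0.13), and so followed the members' order for KO 33 and KO 41 but not for KO 72. Rack1, a signalling scaffold on the small subunit, was at 851, 844 and 751 CPM in the WT lines and 1189, 1067 and 855 CPM in the KO lines, a log2 fold change of 0.35 ± 0.14 (edgeR adjusted p = 0.323). Fau, whose product includes a small subunit protein, was at 216, 210 and 179 CPM in the WT lines and 248, 216 and 209 CPM in the KO lines, which overlapped (0.15 ± 0.11).

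Other genes of the translation machinery were higher in the KO lines by similar amounts. Of 18 translation factors and other TOP mRNAs, 18 were higher at a median log2 fold change of 0.19. At an unadjusted edgeR p under 0.05, 5 of them were higher, against 5.88% of all tested genes. Leaving out 1 line gave 1 (without WT 47 or WT 78) to 14 (without KO 72) and medians of 0.13 to 0.26, and lane as a term gave 1. Eif3l, an initiation factor subunit, was at 148, 141 and 131 CPM in the WT lines and 171, 166 and 171 CPM in the KO lines (0.27 ± 0.07, adjusted p = 0.16 in edgeR). Here KO 72 was level with KO 33, unlike in most ribosomal protein genes. Of 77 mitochondrial ribosomal protein genes, 72 were higher at a median of 0.13, 12 of them at that p. This became 3 (without WT 78 or KO 33) to 18 (without KO 72) when 1 line was left out and 3 with lane as a term. Over all tested genes the share higher at that p was 3.02% without WT 36, 5% without WT 47 and 3.11% without WT 78. It was 4.3% without KO 33, 5.41% without KO 41, 9.06% without KO 72 and 1.39% with lane as a term. The same shares apply to the lists below. The summed level of the mitochondrial ribosomal protein genes was 1151 to 1260 CPM in the WT lines and 1337 to 1365 CPM in the KO lines, without overlap and with KO 72 between the other KO lines. Mrpl12 had the largest log2 fold change of them, 0.37 ± 0.11, with 11.1, 11.2 and 9.11 CPM against 13.8, 12.8 and 13.8 CPM.

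Of 30 ribosome biogenesis factors, 28 were higher at a median of 0.18. At an unadjusted edgeR p under 0.05, 11 of them were higher, against 5.88% of all tested genes. Leaving out 1 line gave 4 (without WT 36, WT 78 or KO 41) to 13 (without WT 47), and lane as a term 2. Rrp9, a protein of the U3 snoRNP that processes pre-rRNA, was at 19.8, 20.0 and 18.1 CPM in the WT lines and 25.3, 25.1 and 27.8 CPM in the KO lines (0.43 ± 0.08, edgeR adjusted p = 0.101). Bysl, needed for small subunit maturation, was at 29.6, 30.6 and 28.1 CPM against 35.0, 34.8 and 37.2 CPM (0.28 ± 0.07, edgeR adjusted p = 0.171). Of 15 genes of the RNA polymerase I machinery, 13 were higher at a median of 0.19, 6 of them at that p. This became 1 without WT 78, KO 33 or KO 41, 3 or 4 without the other WT lines, 6 without KO 72 and 1 with lane as a term. Rrn3, the initiation factor of this polymerase, was at 80.9, 80.3 and 74.1 CPM against 88.7, 90.6 and 90.3 CPM (0.20 ± 0.06, edgeR adjusted p = 0.228). Polr1b was at 27.0, 28.2 and 23.8 CPM against 33.1, 33.7 and 29.8 CPM (0.29 ± 0.09). Ttf1, which ends rDNA transcription, was lower, at a log2 fold change of -0.17 ± 0.11.

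Not every related list leaned the same way. Of 17 regulators of ribosomal protein synthesis, 9 were higher and 8 lower at a median of 0.0012, none at an unadjusted p under 0.05. Rptor, the mTORC1 scaffold, had 92.6, 94.8 and 93.3 CPM in the WT lines and 84.7, 83.8 and 89.4 CPM in the KO lines (-0.12 ± 0.06). Rps6kb2, an S6 kinase gene, had 9.81, 8.26 and 8.19 CPM against 9.96, 10.0 and 12.99 CPM (0.33 ± 0.15). Of 7 snoRNA host genes, whose RNAs are also TOP transcripts, 2 were higher and 5 lower at a median of -0.05. Gas5 had 44.3, 35.2 and 30.9 CPM in the WT lines and 21.7, 45.7 and 29.9 CPM in the KO lines, and was highest in KO 41 and lowest in KO 33.

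Proliferation genes were higher beside the ribosomal protein genes. All 12 were higher at a median log2 fold change of 0.65. At an unadjusted edgeR p under 0.05, 8 of them were higher, against 5.88% of all tested genes. That count was 2 without WT 36, WT 78, KO 33 or KO 41, 9 without KO 72, 11 without WT 47 and 1 with lane as a term. Their sum was 591, 873 and 642 CPM in WT 36, 47 and 78 and 1153, 1001 and 827 CPM in KO 33, 41 and 72, so KO 33 was highest and KO 72 lowest of the KO lines for this list as for the members, with WT 47 above KO 72. Mcm5, a replicative helicase subunit, had 38.7, 56.6 and 42.2 CPM against 82.1, 71.1 and 62.9 CPM (0.65 ± 0.17, edgeR adjusted p = 0.186). Top2a, a mitotic topoisomerase, had 107, 156 and 105 CPM against 247, 200 and 168 CPM (0.74 ± 0.21, edgeR adjusted p = 0.206). The part of proliferation, of macrophage content and of the line in the members' levels was not tested. Of 4 tested endothelial markers 3 were lower, at a median log2 fold change of -0.51 over the 4. At an unadjusted edgeR p under 0.05, 2 were lower, against 8.77% of all tested genes. The sum of the 5 endothelial markers in the count table was 11.4 to 12.6 CPM in the WT lines and 8.92 to 12.4 CPM in the KO lines. Of the erythroid markers only Alas2 was in the table, at 0.398 to 1.12 CPM.

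**Figure D5:**
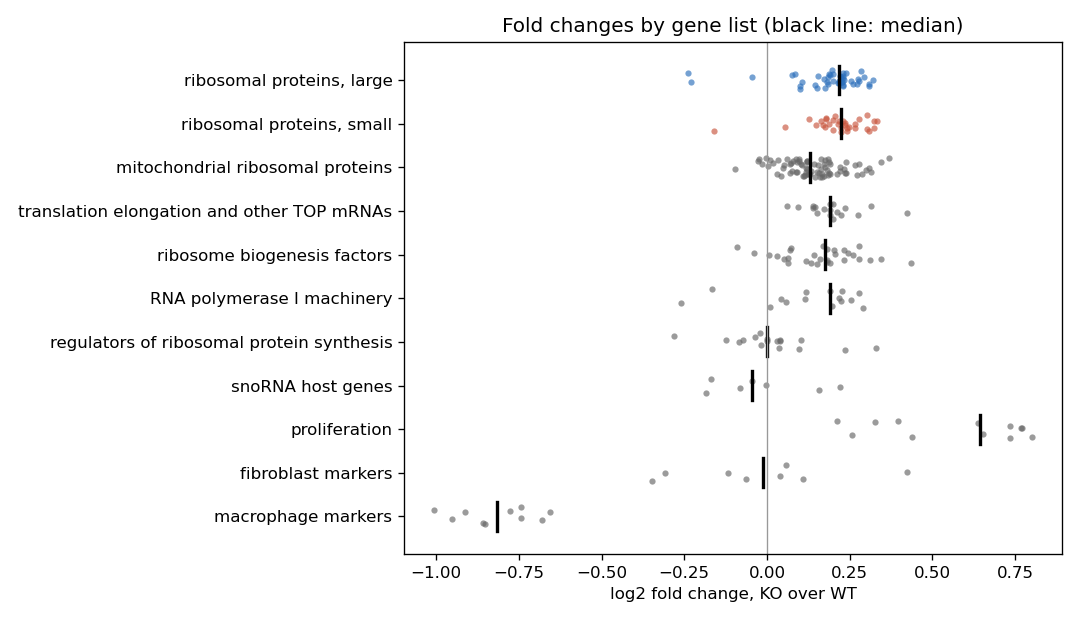
Log2 fold change of KO over WT (x axis) for each tested gene of the ribosomal protein genes and of related lists, with the median as a black line. Both subunits are centred at 0.22, the regulators near 0, proliferation genes at 0.65 and macrophage markers, all lower, on the left.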

How the data were processed

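Libraries were made with the TruSeq RNA kit, which selects poly(A) RNA. The authors deposited 1 table of raw read counts per gene, aligned to mm10 per the labels, which also name edgeR; the aligner and counter are not given in the sources used here. The log2 fold change, score, p-value and q-value columns that the authors deposited beside the counts hold their own comparison and were not used.

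Counts were filtered with filterByExpr, scaled with TMM and tested with the edgeR 4.0.16 quasi-likelihood test (R 4.3.3) on genotype alone, with Benjamini-Hochberg adjustment over 14773 genes. DESeq2 1.42.0 and limma 3.58.1 (voom with sample quality weights) were alternatives, beside other scaling, other filters, lane as a term and leaving out each line. The edgeR test of KO against WT was also run on simulated counts with known changes, and the other steps were not. Paralogue ratios used a pseudocount of 0.5 counts. Transcripts were taken from GENCODE M21 (GRCm38).

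Depth was 67720628 to 98786746 counts per library. Nothing beyond the line numbers says how lines relate to embryos, so p-values measure the spread between these lines.

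Members and lists were chosen with earlier results of these data known. Described in full were the members with the smallest p-values, the highest and lowest levels per length, paralogues, X-linked members and those under the filter, and from other lists the genes with the smallest p-values. Values of some genes are not reported here.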

Additional observations from a re-analysis of the deposited data

How the results depend on the processing

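The median log2 fold change of the members kept its direction under every alternative run and was 0.15 to 0.32 when each line was left out, against 0.00016 to 0.025 for all tested genes; the log2 ratio of the summed level was 0.16 to 0.33. The labels give the genotypes no shared line numbers, so no lines are paired by the labels; a block by the first digit of the line numbers was run as an alternative. Counts of calls depended on the settings, and the cause was not tested. The 78 genes called by edgeR became 871 with DESeq2, 46 with no filter, 267 with voom, 2 with lane as a term, 0 with that block and 0 to 73 when a line was left out. Members called went from 0 to 2 with DESeq2, namely Rps18 (adjusted p = 0.0476, range over the alternatives 0.0476 to 0.784) and Rps27l (adjusted p = 0.0361, range 0.0361 to 0.666), and stayed at 0 without each line. Members higher at an unadjusted p under 0.05 went from 15 to 50 with voom, 2 with lane as a term (background 1.39%), 28 with that block and 2 to 60 without a line (2 without WT 78 or KO 33, 60 without KO 72); lower ones went from 0 to 1 without KO 41. Directions reversed for Rpl22 without KO 41 (-0.0095, range without each line -0.0095 to 0.19), Rpl34 without KO 72 (0.035, range -0.76 to 0.035), and Rpl39l with voom (0.18), without WT 78 (0.15) and without KO 72 (0.26, range -0.42 to 0.26). Over single members 286 values kept their direction and call. With 3 lines a group, the median SE of a member was 0.115 on the log2 scale, against a median log2 fold change of 0.22. The smallest edgeR adjusted p among members was 0.199, so changes of this size in single genes were too small to be called by that test.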
